A study of Mus musculus with 34 samples.

Results

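Late 2-cell mouse embryos that had been injected as zygotes with mRNA for the R442Q form of the kinase CHK1 were compared, across all genes, with late 2-cell embryos injected with mRNA for wild-type (WT) CHK1. The members are the 9 single-embryo libraries of that stage, 5 R442Q and 4 WT, out of 34 libraries in the series. Both groups received injected CHK1 mRNA, were cultured in KSOM medium and carry no inhibitor treatment in the labels. RNA was amplified from 1 embryo per library with SMART-seq2, a full-length polyadenylated-RNA method, and fragmented with Tn5. Strain, litter and uninjected embryos are not given in the labels, so R442Q is compared here with added WT CHK1 and not with an embryo at its natural CHK1 level. Nothing in the labels says whether embryos of 1 genotype shared a litter or a library batch, and the p-values measure only the spread between these embryos.

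CHK1 is the main effector kinase downstream of ATR. When DNA replication stalls or DNA is damaged, it holds back CDC25 phosphatases and thereby delays mitotic entry. The late 2-cell mouse embryo is in a long G2 phase and carries out the major wave of zygotic genome activation, while maternal mRNA is being cleared. Its nucleoli are being assembled from precursor bodies at this stage as ribosomal RNA synthesis begins.

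The stage label was checked against marker genes. The 9 late 2-cell markers (Zscan4, Usp17l, Tdpoz4, Zfp352, Tcstv3 and Duxf3) summed to between 192.5 and 1926 CPM (counts scaled to a common library size) in WT and between 969.5 and 3414 in R442Q embryos, against 30.4 to 300.6 in the 11 zygotes. The WT sums thus overlapped those of zygotes, as did 5 of the 9 markers by their lowest WT embryo (Zscan4c, Zscan4d, Zscan4f, Usp17lc and Tcstv3). Duxf3 was lower than in zygotes, with at most 5.18 CPM in the late 2-cell embryos and 5.88 to 51.0 in zygotes. The 7 oocyte markers summed to 542 to 1593 CPM in WT and 809 to 1299 in R442Q, against 4559 to 6120 in zygotes. Of 19 cumulus and granulosa cell markers, 7 stayed under 1 CPM in every late 2-cell library and 5 were at 0 in all 9 libraries. The list summed to 82.7 to 136 CPM in WT and 45.2 to 134 in R442Q. Its most abundant member in WT was Amhr2, the anti-Müllerian hormone receptor gene, at 56.3 to 114 CPM in WT and 12.7 to 39.4 in R442Q. Kitl, the KIT ligand gene, went the other way in value, at 7.84 to 17.1 CPM in WT and 14.2 to 70.5 in R442Q (log2 fold change 1.62, edgeR adjusted p = 0.072), as did Tnfaip6, at 0.162 to 11.2 and 3.796 to 30.0 CPM (1.49, edgeR adjusted p = 0.41), and neither passed. The 6 sperm markers summed to at most 5.44 CPM in any embryo.

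Chek1, the injected gene (chromosome 9, 36708482 to 36727065 in GRCm38), stood at 475, 396, 424 and 675 CPM in WT replicates 1 to 4. It stood at 259, 667, 720.0, 305 and 415 CPM in R442Q replicates 1 to 5. The genotypes overlapped, and the log2 fold change was 0.00 ± 0.33 (SE) in edgeR. The counts do not separate injected from endogenous mRNA, nor the 2 CHK1 forms. In the 11 zygotes of both genotypes Chek1 averaged 6427 CPM, far above the late 2-cell means of 492 in WT and 473 in R442Q.

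Depth was similar in both genotypes, with 5727938 to 8916347 estimated counts per embryo, but the libraries differed in which transcripts they favoured. The slope of log2 CPM on GC content was 0.349 ± 0.112 per 10 percentage points in WT (SD, n = 4) and -0.279 ± 0.079 in R442Q (SD, n = 5), with no overlap (exact two-sided permutation p = 0.0159, adjusted over 6 measures 0.0317). The slope on transcript length was 0.232 ± 0.063 per doubling in WT (SD, n = 4) and -0.186 ± 0.122 in R442Q (SD, n = 5), again with no overlap (exact permutation p = 0.0159, adjusted 0.0317). R442Q libraries thus held relatively more AT-rich and short transcripts. When the tested genes were put into 10 equal bins by GC content, the median log2 fold change fell from 0.45 in the lowest bin to -0.41 in the highest. By length it fell from 0.84 in bin 1, the shortest, to -0.32 in bin 9. A difference of genotype and a difference in library preparation cannot be told apart here, because no library batch is given. A second fit, in which every library's own trend on GC content and length was removed first, is called the trend-removed fit below, and where it does not keep a call, this is said or its value is given.

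**Figure D1:**
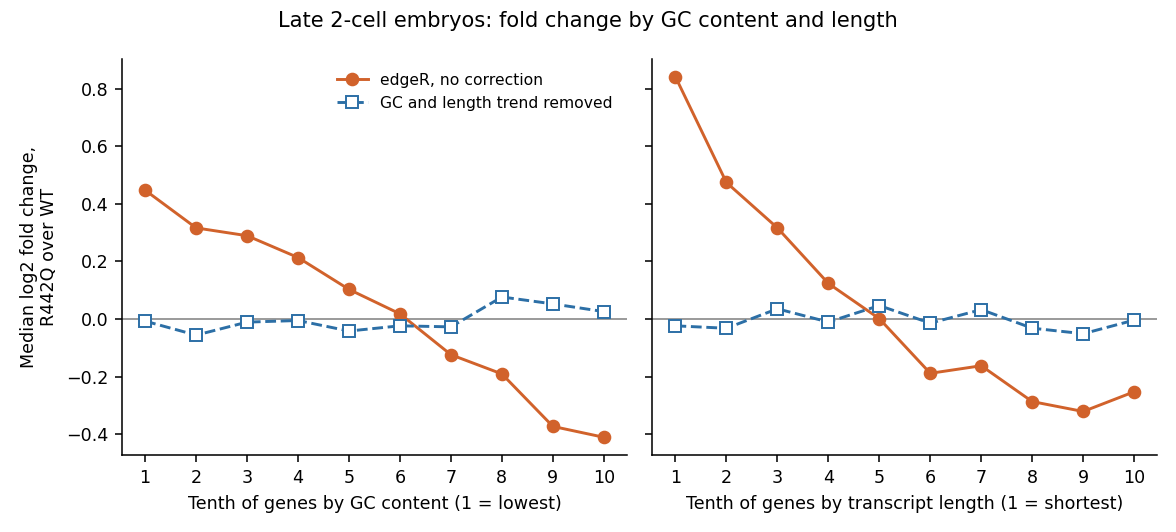
Median log2 fold change (R442Q over WT) of the tested genes, in 10 equal bins by GC content (left) and by transcript length (right), from the uncorrected edgeR fit (filled circles) and with the GC and length trend removed (open squares). The uncorrected medians run from 0.45 to -0.41 with GC content and from 0.84 to -0.32 with length, and lie near 0 once the trend is removed.

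Of 49686 gene symbols, 13883 had enough counts to be tested. In edgeR's quasi-likelihood test 580 genes (4.18%) passed a Benjamini-Hochberg adjusted p of 0.05. Of these, 170 (1.22%) were higher and 410 (2.95%) lower in R442Q embryos. In the trend-removed fit 183 genes (1.32%) passed, 67 higher (0.483%) and 116 lower (0.836%). A total of 147 genes (1.06%) passed in both fits, 50 higher (0.36%) and 97 lower (0.699%). The genotypes did not overlap in CPM for 1728 genes (12.4%), 511 (3.68%) higher and 1217 (8.77%) lower in R442Q. The largest part of the 580 rested on the full set of embryos: 114 were called in each of the 9 fits that left out 1 embryo, 17 higher and 97 lower, and without WT replicate 2 only 142 genes were called. On the deposited FPKM, tested with limma, the balance of directions was more even, with 264 higher and 388 lower.

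**Figure D2:**
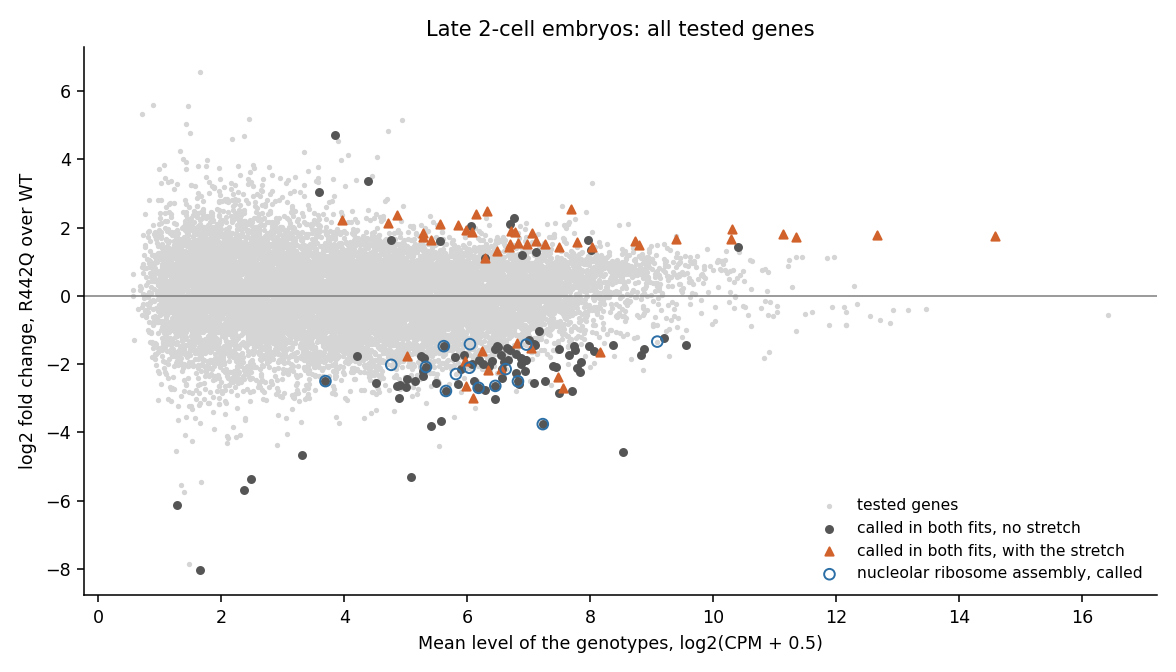
Each point is a tested gene, placed by its mean level over the genotypes as log2(CPM + 0.5) and its log2 fold change (R442Q over WT). Dark points and orange triangles mark the 147 genes called in both fits without and with the shared repeat stretch, and blue rings mark the 15 nucleolar ribosome assembly genes that were lower. Of the 50 genes higher in both fits 36 are triangles, while of all 170 higher in the uncorrected fit 54 carry the stretch.

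The group with the most members lower in R442Q embryos was nucleolar ribosome assembly, the factors that transcribe, modify and cleave ribosomal RNA and join it to proteins in the nucleolus. Of 84 tested members 15 (17.9%) were lower and 0 higher, against 2.95% and 1.22% of all tested genes. Of the 15, 8 were also lower in the trend-removed fit. The median log2 fold change of the 84 was -0.50, and -0.48 with the trend removed, beside 0.07 and -0.002 over all tested genes, so this median hardly moved with GC content and length. Leaving out 1 embryo at a time left between 6 and 16 members lower, with 6 without WT replicate 2 and 8 without WT replicate 4. Without R442Q replicate 3, 4 members were higher and 16 lower, and without any other single embryo 0 were higher. The 15 members included 6 of the 18 members whose mean in zygotes was under 10 CPM.

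Ddx54 encodes a nucleolar DEAD-box RNA helicase (chromosome 5, 120612739 to 120628592). It stood at 274, 393, 149.9 and 301 CPM in the 4 WT embryos. It stood at 17.6, 24.1, 21.9, 3.18 and 30.3 CPM in the 5 R442Q embryos. Every R442Q embryo was thus several-fold below the lowest WT embryo, and Ddx54 fell by 3.76 ± 0.52 on the log2 scale (SE, edgeR adjusted p = 0.0034), or -2.72 with the trend removed (edgeR adjusted p = 0.014).

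Surf6, which encodes a nucleolar matrix protein needed for both ribosomal subunits, stood at 159, 125, 89.0 and 131 CPM in WT. In R442Q it stood at 11.4, 14.5, 30.2, 21.9 and 14.7 CPM. The genotypes did not overlap, and Surf6 fell by 2.69 ± 0.34 on the log2 scale (SE, edgeR adjusted p = 0.0021), or -2.22 with the trend removed (edgeR adjusted p = 0.0089). Rrs1, a regulator that brings the 5S ribonucleoprotein into the large subunit, stood at 141, 171, 92.8 and 204 CPM in WT and at 35.7, 16.2, 11.1, 22.6 and 27.0 in R442Q. It fell by 2.64 ± 0.41 on the log2 scale (SE, edgeR adjusted p = 0.0071) and by 2.50 with the trend removed (edgeR adjusted p = 0.0089). Mybbp1a, a nucleolar MYB-binding protein that acts in ribosomal RNA transcription and processing, averaged 194 ± 60.2 CPM in WT (SD, n = 4) and 31.7 ± 15.4 in R442Q (SD, n = 5). All 4 of these genes were called in each of the 9 fits without 1 embryo.

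The other members lower in both fits were Pes1, Rrp1, Gar1 and Ddx10. Pes1, a component of the PeBoW complex of large-subunit maturation, averaged 87.7 ± 53.1 CPM in WT (SD, n = 4) and 11.98 ± 4.59 in R442Q (SD, n = 5). Rrp1 averaged 64.8 ± 11.9 CPM in WT (SD, n = 4) and 14.6 ± 5.61 in R442Q (SD, n = 5). Gar1, a protein of the H/ACA particles that guide pseudouridylation, stood at 16.8 to 28.6 CPM in WT and at 2.07 to 5.38 in R442Q. Ddx10, a further RNA helicase, was close to the threshold (log2 fold change -1.47 ± 0.39, SE, edgeR adjusted p = 0.048) and was called in 1 of the 9 fits without 1 embryo. The 7 members lower in the uncorrected fit alone were Tcof1, Ubtf, Rrp12, Wdr46, Nolc1, Ftsj3 and Ddx21. Among them Ubtf, the RNA polymerase I activator UBF, stood at 120 to 247 CPM in WT and 9.21 to 49.0 in R442Q. Nolc1, a scaffold of the nucleolus and Cajal body, was the most abundant of the 15, at 561 to 985 CPM in WT and 162 to 346 in R442Q.

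Npm1 did not follow this pattern. The gene, which encodes the abundant nucleolar protein nucleophosmin, stood at 799, 1044, 440.3 and 836 CPM in WT and at 1843, 1367, 963, 1810.0 and 1364 in R442Q. Its value of 1.02 ± 0.34 on the log2 scale (SE) did not pass (edgeR adjusted p = 0.10) and was -0.02 with the trend removed. Ncl and Fbl lay in the direction of the 15 but did not pass. Ncl, encoding nucleolin, was at -1.04 ± 0.36 on the log2 scale (SE, edgeR adjusted p = 0.11), and Fbl, encoding the methyltransferase fibrillarin, at -1.42 ± 0.50 (SE, edgeR adjusted p = 0.12). The summed level of all 84 members overlapped between genotypes, at 9985 to 16090 CPM in WT and 8100 to 14380 in R442Q. Genes beyond the first 4 of this group were named after their values were seen.

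**Figure D3:**
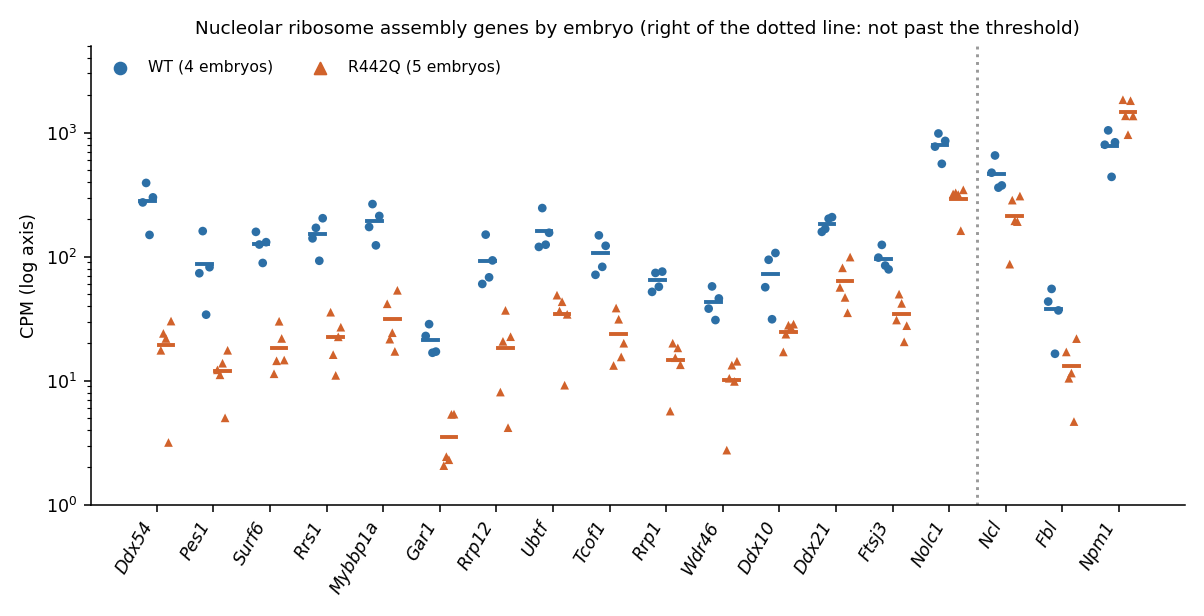
CPM on a log axis in each WT embryo (circles) and R442Q embryo (triangles) for the 15 nucleolar ribosome assembly genes that were lower in R442Q, ordered by fold change, and right of the dotted line Ncl, Fbl and Npm1, which did not pass. Short bars are group means. The genotypes do not overlap in any of the 15, but these were selected as called lower, and most called genes do not overlap. Of all 84 tested members, 25 are lower and 3 higher without overlap, beside 8.77% and 3.68% of all tested genes.

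Parts of the transcription machinery were lower as well. Among RNA polymerase subunits, general transcription factors and Mediator, 11 of 121 tested members were lower (9.09%) and 1 higher (0.826%), beside 2.95% and 1.22% of all tested genes, and 5 were lower in both fits. Without WT replicate 2 the members lower fell to 3 and without WT replicate 4 to 7, and without R442Q replicate 3 there were 15 lower and 12 higher. The median over the 121 was 0.10 and -0.02 with the trend removed, and the other 109 members did not pass. Gtf2f1, the large subunit of TFIIF, stood at 319, 242, 232 and 294 CPM in WT and at 26.6, 57.3, 125, 38.7 and 64.6 in R442Q. All R442Q embryos lay below the WT embryos (log2 fold change -2.06 ± 0.37, SE, edgeR adjusted p = 0.012; -1.94 with the trend removed, edgeR adjusted p = 0.032). The other 4 were Gtf2a1, a TFIIA subunit, Gtf3c5, a subunit of the polymerase III factor TFIIIC, Taf3, a TFIID subunit, and Polr2m, a polymerase II-associated protein, with log2 fold changes of -1.25, -1.93, -1.41 and -1.74. The member that was higher, the TFIID subunit Taf9, shares 68.7% of its 50-base stretches with other annotated genes and overlaps Ak6 on the same strand, and it was 0.75 and not past the threshold with the trend removed (edgeR adjusted p = 0.25).

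Splicing factors included 9 of 108 members lower (8.33%) and 1 higher (0.926%), beside 2.95% and 1.22% of all tested genes, with 3 lower and 1 higher in both fits. The members lower were 2 when WT replicate 4 was left out, 5 when WT replicate 2 was, and 6 in the absence of either WT replicate 3 or R442Q replicate 4, and without R442Q replicate 3 there were 10 lower and 9 higher. Hnrnpf, an hnRNP protein that binds G-rich RNA, stood at 440.4, 593, 436 and 505 CPM in WT and in a narrow range of 153 to 186 in R442Q, with 36.8% of its 50-base stretches shared with other annotated genes (log2 fold change -1.45 ± 0.26, SE, edgeR adjusted p = 0.011). It was -1.60 with the trend removed (edgeR adjusted p = 0.0089). Sf3a1, a U2 snRNP subunit, and Prpf38b were lower by log2 fold changes of -2.05 and -1.87. Snrnp70, the U1 snRNP protein U1-70K, was higher in R442Q embryos (1.44 ± 0.31, SE, edgeR adjusted p = 0.019; 2.40 with the trend removed, edgeR adjusted p = 0.0085), and it carries the repeat stretch described below.

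Single chromatin regulators were lower. Brd2, a bromodomain reader of acetylated histone H4, stood at 421, 229, 291 and 323 CPM in WT and at 23.1, 40.7, 66.8, 33.2 and 44.2 in R442Q. Kmt2d, a histone H3 lysine methyltransferase of enhancers, stood at 351, 293, 435 and 382 CPM in WT and at 31.6, 71.2, 44.4, 58.1 and 42.6 in R442Q. Neither gene overlapped between genotypes, with log2 fold changes of -2.85 ± 0.32 and -2.79 ± 0.30 (SE, edgeR adjusted p = 0.0021 for both), and both stayed lower with the trend removed (-1.87 and -1.62, edgeR adjusted p = 0.011 and 0.027). Both were called in each of the 9 fits without 1 embryo. In all, 4 of 82 chromatin modifying enzymes (4.88%) were lower and 0 higher, near the 2.95% of all tested genes, and Brd2 and Kmt2d were the 2 that passed in both fits. Without any 1 of the 4 WT embryos 2 were lower, and without R442Q replicate 3 there were 6 lower and 1 higher.

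Among chromatin remodelling ATPases and their partners, 7 of 52 were lower (13.5%) and 1 higher (1.92%), beside 2.95% and 1.22% of all tested genes, and without 1 embryo between 3 and 8 were lower, with 3 without WT replicate 4 and 4 without WT replicates 2 or 3 or R442Q replicate 2. Srcap and the NuRD subunit Mta2 were lower in both fits. Mta2 stood at 197, 364, 128 and 243 CPM in WT and at 38.6, 44.0, 20.4, 13.1 and 69.1 in R442Q, with no overlap. Srcap shares 60.3% of its 50-base stretches with other annotated genes and carries the repeat stretch described below, so its own level is uncertain. Smarca4, the BRG1 ATPase that is needed as a maternal factor for genome activation, averaged 85.0 ± 18.01 CPM in WT (SD, n = 4) and 12.6 ± 9.26 in R442Q (SD, n = 5). Its fall of 2.70 ± 0.49 on the log2 scale (SE, edgeR adjusted p = 0.012) became -1.72 with the trend removed and did not pass there (edgeR adjusted p = 0.091). The medians of the chromatin modifying and remodelling lists were -0.45 for both lists and -0.18 and -0.12 with the trend removed. Their members are long and GC-rich, with median lengths of 4660 and 5087 bases.

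Nuclear pore and transport genes included 7 of 53 lower (13.2%, beside 2.95% of all tested genes) and 0 higher. Without WT replicate 2 or 4 the members lower were 3 and 4, and without any other single embryo 6 to 8. Rcc1, the exchange factor that charges RAN in the nucleus, and Tnpo3, the importin of SR proteins, were lower in both fits. Rcc1 stood at 38.1 to 98.4 CPM in WT and at 4.71 to 17.6 in R442Q (log2 fold change -2.48 ± 0.44, SE, edgeR adjusted p = 0.011). Rangap1, the RAN GTPase activator at the pore, was lower in the uncorrected fit (-2.02 ± 0.33, SE, edgeR adjusted p = 0.0096) and just missed with the trend removed (-1.30, edgeR adjusted p = 0.051).

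Genes that were higher in both fits often share a short repeated sequence, while most of those higher in the uncorrected fit do not. A 16-base stretch occurs, on either strand, in annotated transcripts of 36 of the 50 genes higher in both fits (72.0%), of 12 of the 97 lower in both fits (12.4%) and of 942 of all 13883 tested genes (6.79%). The stretch was chosen because it was the one most often shared by these 50 genes, so the share among them is a description and not a test. Of all 170 genes higher in the uncorrected fit, 54 carry it and 116 do not. It is known as part of B2 elements, short interspersed repeats found in the untranslated regions and introns of many mouse genes. The stretch and 30-base windows around it are shown for 6 of the most abundant risen genes, to let the copies be compared. The windows come from GENCODE M21 transcripts (GRCm38), written 5′ to 3′ along the transcript, with the 16 shared bases or their reverse complement in capitals.
Shared stretch: ATGGTGGCTCACAACC
Its reverse complement: GGTTGTGAGCCACCAT
Dnajb14: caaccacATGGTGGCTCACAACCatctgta
Itch: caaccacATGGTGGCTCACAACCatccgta
Zfp410: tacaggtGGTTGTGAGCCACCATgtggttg
Harbi1: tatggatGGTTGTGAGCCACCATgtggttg
Cd300a: tatgtttGGTTGTGAGCCACCATgtggttg
Dhdh: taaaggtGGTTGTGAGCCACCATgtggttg

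The windows lie in the 3′ UTR of the transcripts of Dnajb14 (plus strand, chr3:137914129-137914158), Zfp410 (plus strand, chr12:84330287-84330316), Harbi1 (plus strand, chr2:91713095-91713124), Cd300a (plus strand, chr11:114902020-114902049) and Dhdh (minus strand, chr7:45473279-45473308). That of Itch lies in a retained-intron transcript (plus strand, chr2:155176683-155176712). The Zfp410 transcript is annotated as subject to nonsense-mediated decay. The repeat runs in sense in Dnajb14 and Itch and in antisense in the other 4, so the matches are not tied to 1 orientation.

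Dnajb14, which encodes a membrane-bound HSP40 co-chaperone, was the most abundant gene that rose. It stood at 11200.0, 8721, 9583 and 17010.0 CPM in the 4 WT embryos. It stood at 24610.0, 35470.0, 63410.0, 31100.0 and 33270.0 CPM in the 5 R442Q embryos. All R442Q embryos lay above the WT embryos, and the rise was 1.75 ± 0.34 on the log2 scale (SE, edgeR adjusted p = 0.013), or 1.71 with the trend removed (edgeR adjusted p = 0.021). The call held in 8 of the 9 fits without 1 embryo, and without WT replicate 2 it was lost (edgeR adjusted p = 0.0799). Dnajb14 alone took up 1.16 ± 0.373% of all counts in WT (SD, n = 4) and 3.757 ± 1.501% in R442Q (SD, n = 5).

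The counts of 4 of the other genes were compared with that of Dnajb14. The count of Zfp410, encoding a zinc finger transcription factor, was 24.1% to 28.8% of that of Dnajb14 in all 9 embryos, and 20.9% to 24.8% in the 11 zygotes. Harbi1, a transposase-derived gene, kept to 9.46% to 11.7%, Itch, a ubiquitin ligase gene, to 7.20% to 10.8%, and Cd300a, the gene of an inhibitory receptor of leukocytes, to 4.002% to 6.53%. For comparison Fth1, encoding the ferritin heavy chain, which rose without carrying the stretch, varied from 2.24% to 8.33%. Zfp410 and Harbi1 varied least. The ratios were computed after the genes were seen to rise together, and Fth1 was chosen after its values were seen, so they are a description.

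**Figure D4:**
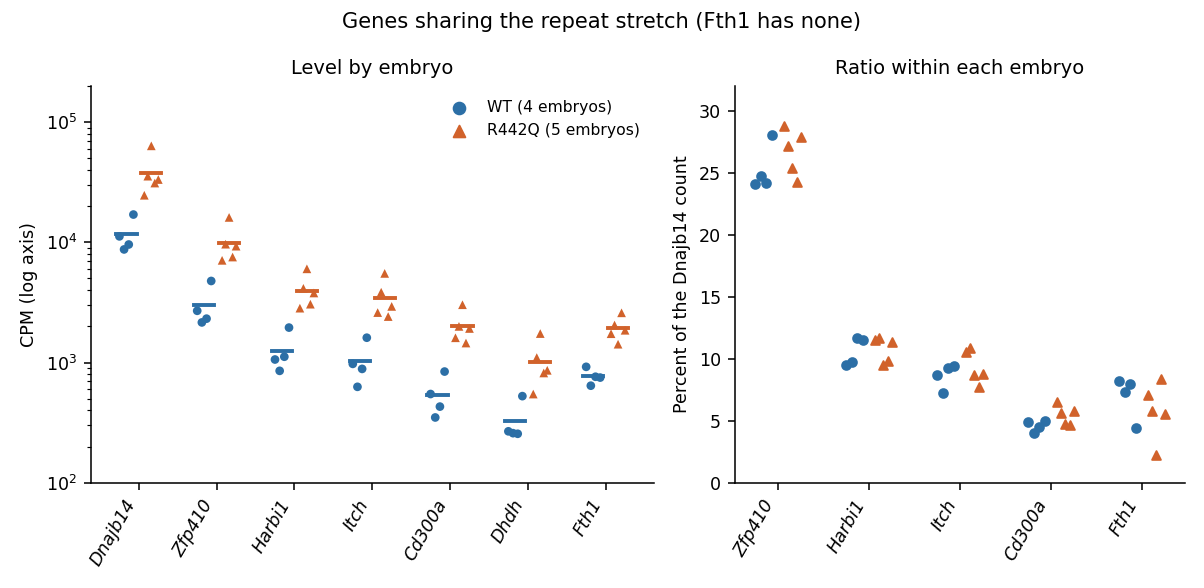
Left: CPM on a log axis in each WT embryo (circles) and R442Q embryo (triangles), with group means as bars, for 6 genes that share the repeat stretch and for Fth1, which does not. Right: the count of each gene as a percentage of the Dnajb14 count in the same embryo; Zfp410 spans 24.1% to 28.8% in all 9 embryos and Fth1 2.24% to 8.33%.

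Between 0.918% (Zfp410) and 10.4% (Dhdh) of the 50-base stretches of these 6 genes occur in other annotated genes. The submitters' notes name RSEM, a program that divides reads matching several transcripts among them. Reads from repeat copies elsewhere and reads from these genes' own mRNA cannot be told apart in the deposited counts, so the values of all 36 genes are uncertain as measures of the named gene. All genes with the stretch together took up 6.82% to 8.83% of counts in WT and 9.95% to 16.1% in R442Q embryos, without overlap. Without Dnajb14 the shares were 5.86% to 7.13% and 7.49% to 9.77%. Most of the 942 genes did not pass. Of them 54 (5.73%) were higher and 35 (3.72%) lower, beside 1.22% and 2.95% of all tested genes, and their median log2 fold change was 0.18, or 0.17 with the trend removed.

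Other large rises with the stretch were those of Dct, Slfn5, Chpt1, Gm43123 and Gm45477, with log2 fold changes of 2.13 to 2.50. Slfn5, a Schlafen family gene, stood at 29.1, 15.97, 20.5 and 29.9 CPM in WT and at 121, 83.3, 117, 167 and 94.8 in R442Q (log2 fold change 2.39 ± 0.34, SE, edgeR adjusted p = 0.0038). Mrpl15 and Mrps22, the mitochondrial ribosomal proteins that were higher in both fits, carry the stretch too.

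Of the 50 genes higher in both fits, 14 had no such stretch. Ooep, a subunit of the maternal complex under the egg cortex, stood at 37.4, 32.4, 52.9 and 30.4 CPM in WT and at 192, 124, 265, 203 and 99.8 in R442Q, against a mean of 1426 CPM in zygotes. The embryos of the 2 genotypes were well apart, and the rise was 1.84 on the log2 scale with the trend removed (edgeR adjusted p = 0.020). Eif1ax, an X-linked translation initiation factor, averaged 41.0 ± 21.4 CPM in WT (SD, n = 4) and 166 ± 32.7 in R442Q (SD, n = 5). Fth1 stood at 642 to 921 CPM in WT and at 1420.0 to 2590.0 in R442Q (log2 fold change 1.44 ± 0.28, SE, edgeR adjusted p = 0.015). Gapdh, a glycolytic enzyme gene, rose by 1.34 ± 0.36 (SE, edgeR adjusted p = 0.049) and was called in 1 of the 9 fits without 1 embryo. Prdx6, a peroxiredoxin, stood at 71.2 to 206 CPM in WT and at 284 to 509 in R442Q, and was higher in both fits (1.65 and 1.59).

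Of 26 tested genes of the Cypt and other spermatid-type families, 3 were higher in R442Q embryos (11.5%, beside 1.22% of all tested genes). Without 1 embryo 2 to 4 were higher. These 3 were near 0 in zygotes and low in WT embryos, but the list as a whole was not. Of the 26, 17 averaged under 10 CPM in zygotes, and all genes of the list summed to 225.5 to 616 CPM in WT. Gm5941 (chromosome X), which shares 32.1% of its 50-base stretches with other annotated genes, stood at 1.94, 0.726, 0.617 and 1.02 CPM in WT and at 8.80, 25.5, 22.3, 50.4 and 27.6 in R442Q (log2 fold change 4.72 ± 0.66, SE, edgeR adjusted p = 0.0035; 3.44 with the trend removed, edgeR adjusted p = 0.014). Cypt1 (chromosome X) and Gm15056 (chromosome 8) were higher by log2 fold changes of 4.07 and 4.53 but did not pass with the trend removed (edgeR adjusted p = 0.084 and 0.064). All 3 were without overlap between genotypes. Of the 79 genes of the Cypt and related families 26 had enough counts to be tested, and genes near 0 in WT could pass that filter only through the R442Q embryos. The 11.5% is therefore not comparable with the share of all tested genes.

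Of 505 tested X-linked genes 13 (2.57%) were higher and 2 (0.396%) lower, beside 1.22% and 2.95% of all tested genes, and 2 were higher and 0 lower in both fits. Their median log2 fold change was 0.67, or 0.33 with the trend removed. The sex of the embryos is not labelled. Counts of both Y-linked genes Ddx3y and Eif2s3y were present in 2 of 4 WT and 1 of 5 R442Q embryos, and neither had a count in the other 2 WT and 4 R442Q embryos. The part of embryo sex in these X-linked values was not tested. Kdm5d, also annotated on chromosome Y, had reads in all 9 embryos and was not used for this.

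Several of the largest falls in both fits were in genes that share sequence with others. Lrch4, a leucine-rich repeat protein gene, stood at 61.6 to 71.7 CPM in WT and at 0 to 3.85 in R442Q, but 71.7% of its 50-base stretches occur in other annotated genes. Gm29216, a nuclear copy of a mitochondrial gene, stood at 597 to 837 CPM in WT and at 0 to 65.8 in R442Q, with 97.1% of its stretches shared, and it passed in 3 of the 9 fits without 1 embryo. It was the 1 of 6 tested genes of its kind (16.7%, beside 2.95% of all tested genes lower) that passed in the uncorrected fit. Their median log2 fold change was -0.74 there. With the trend removed the median was -2.62, and Gm10925, Gm28437, Gm28438 and Gm28661 passed as well (-2.62, -2.65, -2.62 and -1.96, edgeR adjusted p = 0.00852, 0.00852, 0.00978 and 0.0429). In that fit 0.836% of all tested genes were lower. Gm10925, which lies wholly in stretches found in other annotated genes, had means of 9755 CPM in WT and 5203 in R442Q and overlapped between genotypes. Whether reads given to these nuclear copies came from them or from mitochondrial transcripts cannot be told from the deposited counts. Gm1995 stood at 18.5 to 121 CPM in WT and 1.48 to 17.4 in R442Q, with 44.3% shared. Ccar2, a regulator of the deacetylase SIRT1, stood at 14.5 to 22.1 CPM in WT and 0 to 1.23 in R442Q, with no shared stretch, and overlaps Bin3 on the opposite strand. Without WT replicate 2 neither gene passed (edgeR adjusted p = 0.0643 for Gm1995 and 0.0651 for Ccar2). Tmppe stood at 68.1 to 128 CPM in WT and 0.518 to 12.3 in R442Q and lies within Glb1 on the same strand. Slc25a25, a mitochondrial ATP-Mg/phosphate carrier, stood at 113, 233, 148 and 132 CPM in WT and at 7.94, 17.1, 27.4, 5.02 and 33.8 in R442Q (log2 fold change -3.03 ± 0.50, SE, edgeR adjusted p = 0.0096). Hdgfl2, a chromatin-binding PWWP protein, averaged 121 ± 26.8 CPM in WT (SD, n = 4) and 14.4 ± 9.14 in R442Q (SD, n = 5), and it carries the repeat-derived stretch described above.

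In the checkpoint pathway to which CHK1 belongs, 1 of 28 kinases and activators was higher and 1 lower (3.57% each, beside 1.22% and 2.95% of all tested genes), and 0 passed in both fits. Without any 1 of the WT embryos, or without R442Q replicates 1 or 2, 0 were called. Without R442Q replicates 3 or 4 there was 1 lower and 0 higher, and without R442Q replicate 5 there was 1 higher and 0 lower. Mdc1, the mediator that binds phosphorylated H2AX, stood at 31.8 to 48.3 CPM in WT and 5.53 to 20.3 in R442Q (log2 fold change -1.85 ± 0.45, SE, edgeR adjusted p = 0.033; -1.35 with the trend removed, edgeR adjusted p = 0.13). Rpa3, a subunit of the single-strand binding complex, was higher by 1.42 ± 0.38 (SE, edgeR adjusted p = 0.049), but its value was -0.36 with the trend removed (edgeR adjusted p = 0.70). Of 28 genes of the mitotic entry switch 1 (3.57%) was lower, Ccnf, the cyclin F gene (-1.36 ± 0.31, SE, edgeR adjusted p = 0.025), and it was at -0.64 and not past the threshold with the trend removed (edgeR adjusted p = 0.36). Cdk1 stood at 446 to 760.3 CPM in WT and 474 to 1429 in R442Q, and Ccnb1, cyclin B1, at 736 to 1031 and 793 to 1935, with overlap in both (edgeR adjusted p = 0.19 for each).

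Spindle, kinetochore and mitotic exit genes had 4 of 62 members (6.45%) lower and 1 (1.61%) higher, beside 2.95% and 1.22% of all tested genes, and 1 was lower in both fits. Without WT replicates 1, 2 or 4 the members lower were 1, 0 and 2, without R442Q replicate 2 they were 2, and without R442Q replicate 3 there were 5 higher. Kifc1, the minus-end kinesin HSET, was lower in both fits, at 16.7, 15.1, 3.09 and 5.10 CPM in WT and at 0, 0.349, 0.330, 0 and 0.337 in R442Q, and 39.8% of its 50-base stretches occur in other annotated genes. Incenp, the scaffold of the chromosomal passenger complex, stood at 92.0 to 181 CPM in WT and 17.2 to 56.9 in R442Q, but did not pass with the trend removed (edgeR adjusted p = 0.13). Pttg1, the securin gene, was higher (1.21 ± 0.29, SE, edgeR adjusted p = 0.031) and Espl1, the gene of its partner separase, lower (-1.26 ± 0.32, SE, edgeR adjusted p = 0.043). Neither of the 2 passed with the trend removed (0.45 and -0.27).

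DNA replication genes had 2 of 53 members (3.77%) higher and 1 (1.89%) lower, beside 1.22% and 2.95% of all tested genes. Without R442Q replicate 3 there were 5 higher and 2 lower, and without any other single embryo 0 higher and 1 lower. Mcm2, a subunit of the replicative helicase, stood at 109, 115, 98.8 and 112 CPM in WT and at 8.97, 16.2, 14.5, 26.0 and 16.04 in R442Q. It was well apart between genotypes in both fits (log2 fold change -2.65 ± 0.34, SE, edgeR adjusted p = 0.0022; -2.20 with the trend removed, edgeR adjusted p = 0.0089), and its transcript carries the repeat stretch. Pcna, the replication clamp, and Orc4, an origin recognition subunit, were higher by 1.12 and 1.09 and passed in 1 of the 9 fits without 1 embryo each. With the trend removed they were at 0.24 and 0.74 and did not pass (edgeR adjusted p = 0.77 and 0.21). Of 78 DNA repair genes, 3 (3.85%) were lower and 0 higher, near the 2.95% of all tested genes, with 1 to 5 lower without 1 embryo (1 without WT replicate 2 or 4, and 5 without R442Q replicate 3), and 0 passed in both fits. Among them was Top3a, a topoisomerase of the dissolvasome (-2.07 ± 0.38, SE, edgeR adjusted p = 0.013; -1.42 with the trend removed, edgeR adjusted p = 0.068).

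Of 35 p53 pathway genes 2 were lower (5.71%, beside 2.95% of all tested genes) and 0 higher, with 1 to 3 lower without 1 embryo, and 0 passed in both fits. Sesn2, a stress-induced sestrin, stood at 341, 306, 229 and 257 CPM in WT and at 57.8, 32.5, 70.2, 4.52 and 53.3 in R442Q (-2.60 ± 0.53, SE, edgeR adjusted p = 0.017; -1.67 with the trend removed, edgeR adjusted p = 0.12). Mdm2, the p53 ubiquitin ligase and target, stood at 184 to 212 CPM in WT and 65.0 to 109.5 in R442Q (-1.07 ± 0.27, SE, edgeR adjusted p = 0.041; -1.11 with the trend removed, edgeR adjusted p = 0.053). Cdkn1a, encoding p21, was 314, 135, 136 and 130.3 CPM in WT and 111 to 179 in R442Q, with overlap, and Trp53 itself was at 0.05 ± 0.36 on the log2 scale (SE, edgeR adjusted p = 0.96). Among 24 BCL2 family and caspase genes 1 (4.17%) was lower, the antiapoptotic Bcl2l1 (-1.64 ± 0.30, SE, edgeR adjusted p = 0.013; -1.09 with the trend removed, edgeR adjusted p = 0.080).

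A list of 74 tested genes was made for the 2-cell-specific multicopy families, which mark genome activation. Of these, 1 (1.35%) was higher and 0 lower, near the 1.22% of all tested genes that were higher, and 0 passed in both fits. The gene that was higher was Arg2 (2.08, edgeR adjusted p = 0.011; 1.16 with the trend removed, edgeR adjusted p = 0.079). Arg2 shares no 50-base stretch with other annotated genes and averaged 330 CPM in zygotes. It is thus neither multicopy by sequence nor specific to the 2-cell stage, and no other member of the list passed. Without WT replicate 1 the number higher was 7 and without R442Q replicate 3 it was 4, while over all embryos the median log2 fold change was 1.08, or 0.23 with the trend removed. Zfp352 stood at 481, 42.7, 219 and 179 CPM in WT and at 361 to 629 in R442Q, and Zscan4d at 12.2 to 234 and 68.7 to 504. Both genes overlapped between genotypes, and the WT embryos alone spanned a wide range. Of 49 regulators of genome activation, Zfp57, a guardian of imprints, was higher (1.19 ± 0.31, SE, edgeR adjusted p = 0.046; 0.93 with the trend removed, edgeR adjusted p = 0.14) and Smarca4 lower, 0 passed in both fits, and 5 were higher without R442Q replicate 3. Of 75 oocyte and maternal transcripts Ooep was the 1 (1.33%) that was higher and 0 were lower, and 4 were higher without R442Q replicate 3 or 5. Their median was 0.71, or 0.09 with the trend removed.

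Genes were also split by their level in zygotes. Of 1755 genes over 100 CPM in zygotes, 38 (2.17%) were higher and 91 (5.19%) lower, beside 1.22% and 2.95% of all tested genes. Of 5277 genes at 10 to 100 CPM, 72 (1.36%) were higher and 202 (3.83%) lower, and of 4043 genes at 1 to 10 CPM, 35 (0.866%) were higher and 80 (1.98%) lower. Of 2745 genes under 1 CPM, 25 (0.911%) were higher and 37 (1.35%) lower, with a median log2 fold change of 0.34, or 0.17 with the trend removed. The median of the genes over 100 CPM was -0.001, or -0.06 with the trend removed. Both falls and rises were more frequent among genes over 100 CPM in zygotes than among those under 1 CPM. Falls outnumbered rises in each of these classes, as they did over all tested genes.

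Cytoplasmic ribosomal protein, respiratory chain, mitochondrial ribosomal protein and proteasome genes had medians above 0 in R442Q embryos before the length and GC trend was removed and closer to 0 after it. The 88 cytoplasmic ribosomal protein genes had a median log2 fold change of 0.80, with 86 above 0, and a median length of 1054 bases. With the trend removed their median was 0.16, and 61 were above 0. Of these 88, Rpl39 was the 1 (1.14%, beside 1.22% of all tested genes) that passed (1.52 ± 0.40, SE, edgeR adjusted p = 0.049; 0.42 with the trend removed, edgeR adjusted p = 0.66), and their summed level overlapped between genotypes. Without R442Q replicate 3 the number higher was 18, and without any other single embryo 0. Nuclear-encoded respiratory chain genes had a median of 0.74, or 0.15 with the trend removed. Of these 79 genes, 2 were higher (2.53%, beside 1.22% of all tested genes). The number was 12 without R442Q replicate 3, 4 without WT replicate 1 and 0 or 1 without any other single embryo. Mitochondrial ribosomal proteins had a median of 0.55, or 0.26 with the trend removed. Of these 77 genes, 3 were higher (3.90%, beside the same 1.22%). The number was 6 without R442Q replicate 3 and 1 without R442Q replicates 1, 2 or 4 or any WT embryo. Proteasome genes went from 0.40 to -0.10. Replication-dependent histone genes, with a median length of 667 bases, had one of 1.27, which was still 0.83 with the trend removed. Of these 69 genes only the 28 with enough counts were tested, and 0 passed.

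**Figure D5:**
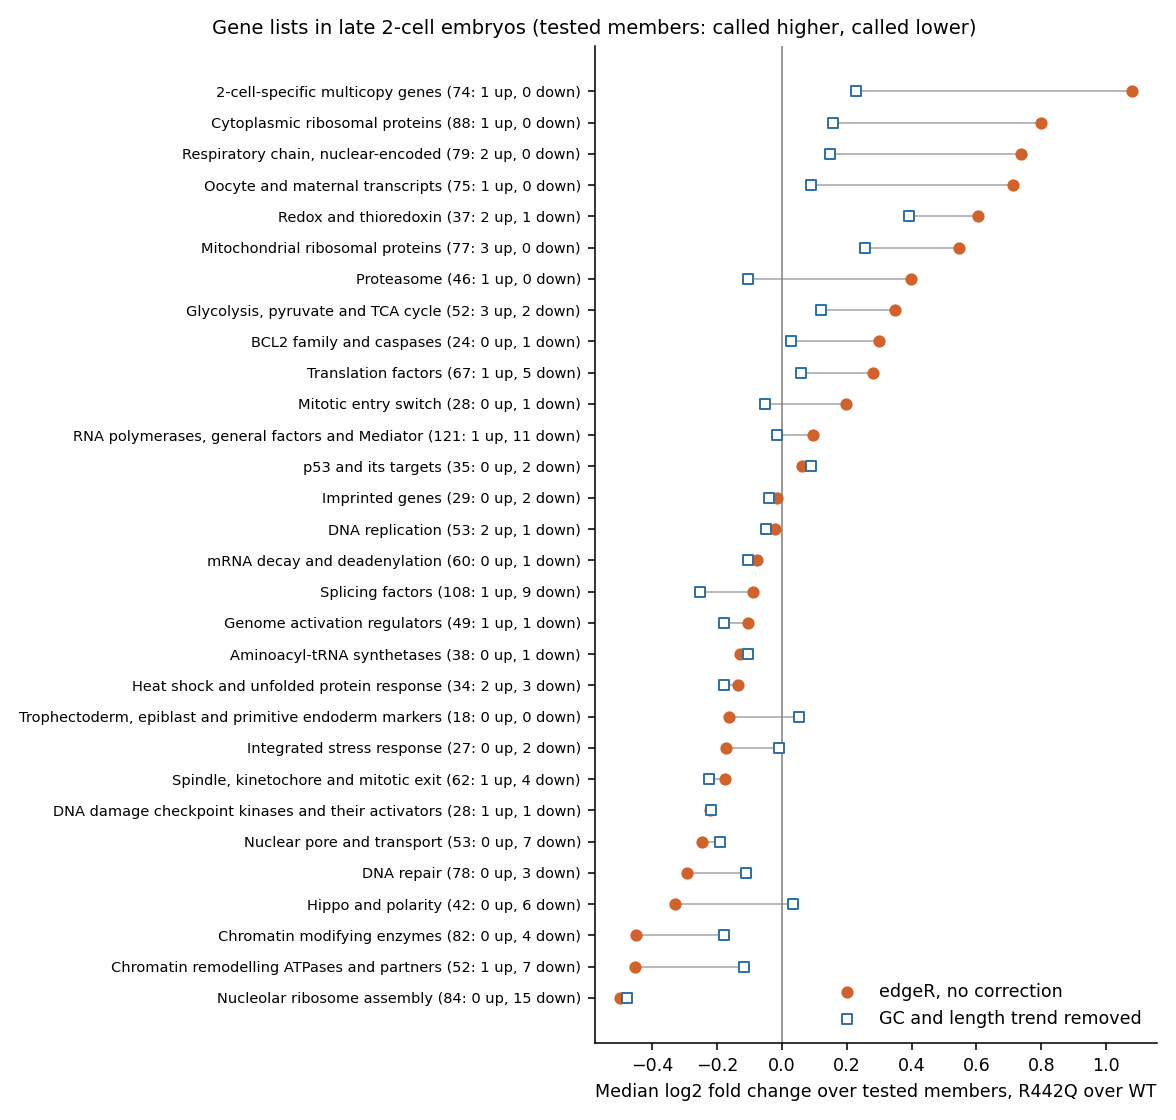
Median log2 fold change (R442Q over WT) over the tested members of each gene list with at least 18 of them and with over 50% of its genes tested, from the uncorrected edgeR fit (filled circles) and with the GC and length trend removed (open squares). Row labels give the tested members and how many were called higher and lower. Nucleolar ribosome assembly is at -0.50 and -0.48, while cytoplasmic ribosomal proteins move from 0.80 to 0.16.

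Translation, stress and metabolic genes were mixed. Of 67 translation factors 5 (7.46%) were lower and 1 (1.49%) higher, Eif1ax, beside 2.95% and 1.22% of all tested genes. Without WT replicate 2 the number lower was 0, without WT replicate 4 it was 2 and without R442Q replicates 2 or 4 it was 3, and without R442Q replicate 3 there were 4 higher. Eif3a, the largest subunit of initiation factor eIF3, was lower in both fits (-1.43 ± 0.33, SE, edgeR adjusted p = 0.027; -1.40 with the trend removed, edgeR adjusted p = 0.047). Ppp1r15a, the stress-induced phosphatase subunit GADD34, stood at 396, 397, 264 and 424 CPM in WT and at 94.2, 71.2, 83.9, 61.0 and 141 in R442Q and was lower in both fits (-1.93 and -1.31). With Sesn2 it made up the 2 lower members of 27 integrated stress response genes (7.41%, beside 2.95% of all tested genes). The median of the 27 was -0.17, or -0.009 with the trend removed, with 13 above 0 and 14 below.

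Heat shock genes had 3 of 34 members lower (8.82%) and 2 higher (5.88%), beside 2.95% and 1.22% of all tested genes. Without 1 embryo at most 2 were lower, with 0 without WT replicate 2 or 4, and 0 to 3 were higher. Hsp90ab1, the constitutive HSP90, stood at 722, 964, 438 and 704 CPM in WT and at 250.2, 247, 105, 116 and 270.4 in R442Q, and was lower in both fits (-1.72 and -1.65). Hspa4 was lower, and the small chaperone genes Hspb1 and Hspe1 higher, in the uncorrected fit alone. Hspa1a, an inducible HSP70, was lower as well (-2.72 ± 0.69, SE, edgeR adjusted p = 0.042; -1.92 with the trend removed, edgeR adjusted p = 0.19), and 60.4% of its 50-base stretches occur in other annotated genes.

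Redox genes had 2 of 37 members (5.41%) higher, Prdx6 and the X-linked Prdx4, and 1 (2.70%) lower, beside 1.22% and 2.95% of all tested genes. Without R442Q replicate 3 there were 5 higher and 2 lower, without WT replicates 1 or 4 there was 1 higher, and without WT replicates 2 or 3 there were 0. The gene that was lower was Nfe2l1, an NRF1 transcription factor gene that was lower in both fits (-2.14 and -1.35). Prdx4 did not pass with the trend removed (0.57, edgeR adjusted p = 0.51). The median of the 37 was 0.60, or 0.39 with the trend removed. Of 52 glycolysis, pyruvate and TCA cycle genes 3 (5.77%) were higher and 2 (3.85%) lower, and without 1 embryo 0 to 4 were higher and 1 or 2 lower, with 0 higher without any 1 of the WT embryos. Pkm, the pyruvate kinase gene, was lower (-1.76 ± 0.30, SE, edgeR adjusted p = 0.0099; -1.19 with the trend removed, edgeR adjusted p = 0.056), while Gapdh was higher in both fits. Mdh1, a malate dehydrogenase gene, was higher by 1.28 (edgeR adjusted p = 0.044), but not with the trend removed (0.82, edgeR adjusted p = 0.28). Hippo and polarity genes had 6 of 42 lower (14.3%, beside 2.95% of all tested genes) and 0 higher, among them Llgl2 (-2.58 ± 0.38, SE, edgeR adjusted p = 0.0044), Pard3 and Nf2. In each of the 9 fits without 1 embryo only 2 to 4 were lower, 0 passed in both fits, and the median moved from -0.33 to 0.03.

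Use of strand in counting is not given in the sources used here. Many of the genes described, among them Ddx54, Mybbp1a, Pes1, Brd2, Hnrnpf, Slc25a25, Hdgfl2, Ppp1r15a and Hspe1, overlap annotated genes on the opposite strand, from which their reads could not be separated without strand.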

How the data were processed

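Single late 2-cell embryos, 4 WT and 5 R442Q, were sequenced as SMART-seq2 libraries. The authors deposited expected counts per gene, made with RSEM on mm10, per the submitters' processing notes, and FPKM values from the same program. The gene annotation, strand setting and filters are not given in the sources used here. Expected counts were rounded to whole numbers. Library totals were 5727938 to 8916347.

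Genes were kept by edgeR's filterByExpr (minimum count 10) and tested with edgeR 4.0.16 (TMM, quasi-likelihood, Benjamini-Hochberg, threshold 0.05) in R 4.3.3. CPM were computed from library totals. SE is the log2 fold change divided by the root of the F statistic. In the trend-removed fit, natural splines (5 degrees of freedom) of each library's log2 CPM deviations on GC content and log2 length of the longest GENCODE M21 transcript entered as offsets. Of the 49686 symbols, 48897 (98.4%) matched GENCODE M21. The share of 50-base stretches found in other genes was counted in its transcripts. Library measures were compared by exact permutation over the 126 splits (scipy 1.17.1). The edgeR step was tested on simulated counts. Alternatives used DESeq2 1.42.0 and limma 3.58.1 on log2(FPKM + 1) and log2(FPKM + 0.1).

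The genes named are Chek1, the largest changes called in both fits, the most abundant called genes and up to 4 called members of each list by smallest p. In addition, 30 genes, among them the further nucleolar genes, Fth1, Gapdh, Cd300a, Dhdh, Cdk1, Trp53, Cdkn1a and Zfp352, were chosen after their values were seen. Some genes that meet the rule are not reported here. The comparison and the gene lists were chosen with earlier results of these data known.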

Additional observations from a re-analysis of the deposited data

Results flagged for a closer look

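Among 216 sets of values (a gene or library measure in 1 genotype), 15 held an embryo far from the others by Dixon's criterion, and chance alone gives about 1 in 20. R442Q replicate 3 was far above the other R442Q embryos for Dnajb14, at 63410.0 CPM, and for Zfp410, at 16100.0 CPM, which share the repeat stretch. It was also apart for the checkpoint mediator gene Mdc1, at 20.28 CPM. WT replicate 2 was apart for Mdc1 at 48.34 CPM, for Tmppe at 127.9 CPM and for Dct, a melanin synthesis gene, at 7.114 CPM. WT replicate 4 was apart for Dhdh at 525.2 CPM and for Prdx4 at 229.1 CPM. WT replicate 3 was apart for the polarity gene Pard3 at 622.1 CPM and in its sum of FPKM, 712234. WT replicate 1 was apart for Cdkn1a, at 314.0 CPM. R442Q replicate 4 was low for Nolc1 at 162.1 CPM, and R442Q replicate 5 was apart for Cypt1 at 97.35 CPM and for Gm1995 at 17.38 CPM. R442Q replicate 5 also had the largest total count, 8916347.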

How the results depend on the processing

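The count of 580 changed genes depended on the processing. It was 183 with the GC and length trend removed, 889 with no filter on low counts, 947 among genes of at least 10 CPM, 2507 with zygotes fitted together with late 2-cell embryos and 1683 with DESeq2. Without 1 embryo it ranged from 142 (without WT replicate 2) to 891 (without R442Q replicate 3). It was also 351, 283 and 209 without WT replicates 1, 3 and 4, and 372 without R442Q replicate 2. With the trend removed as well it was 61, 42, 47 and 71 without WT replicates 1 to 4, and 81, 69, 293, 125 and 141 without R442Q replicates 1 to 5. With the genes that share the repeat stretch left out, a choice made after seeing the data, 419 of 12905 genes were called, 87 of them higher.

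The labels do not say whether shared replicate numbers pair the embryos. By title number, the correlations of same-numbered embryos' deviations were -0.144, -0.116, 0.206 and -0.059. So few correlations cannot decide whether the embryos are paired. With the replicate block 58 genes passed, with the numbers of the sample descriptions as the replicate block 32 passed, and with the replicate block and the trend removed 0 passed in edgeR, with 1658 at an unadjusted p under 0.05.

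Of 92 named genes called in the uncorrected fit, 90 kept their direction in all settings. Rpa3 was at -0.3564 with the trend removed, -0.267 with the replicate block as well, and -0.5351 to -0.2221 with the trend removed and 1 embryo left out (-0.2221, -0.5351, -0.3632 and -0.3321 without WT replicates 1 to 4; -0.4671, -0.3602, -0.4614, -0.2714 and -0.2658 without R442Q replicates 1 to 5). Hspe1 was at -0.04198 with the trend removed and without R442Q replicate 3. The Chek1 difference, -0.1437 on the log2 scale by exact permutation (p = 0.7143), was 0.1598 on FPKM and -0.3247 to 0.04414 without 1 embryo, with 0.01858 without WT replicate 4. Without 1 embryo the differences in sum of FPKM (139400.0 to 180000.0), GC slope (-0.6663 to -0.5806) and length slope (-0.458 to -0.3773) kept their sign. In 8 of these 9 comparisons the exact permutation p adjusted over 6 measures was 0.05714 or 0.07143, with fewer splits to permute. The difference in total count ranged from -467600.0 (without R442Q replicate 5) to 329500.0 and was -21600.0 without WT replicate 4. That in genes detected ranged from -2196 (without R442Q replicate 3, exact permutation adjusted p = 0.04286) to -834.8.

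Litter, sex and library batch are not labelled, 1 embryo gives 1 library, and 4 against 5 embryos limit what can pass.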
